A study of Danio rerio with 12 samples.

Results

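DNA methylation in vertebrates sits mostly on cytosines that are followed by a guanine (CpG sites). De novo methyltransferases of the Dnmt3 family, to which the product of dnmt3ba belongs, place new methyl marks, and the maintenance enzyme Dnmt1 copies them after replication. A genome assembly holds its numbered chromosomes and, beside them, scaffolds, which are assembled stretches listed under names of their own. Scaffolds that could not be placed on a chromosome are often rich in repeated sequence, since repeats are hard to assemble and to place. Whether the scaffolds described here are of that kind is not known.

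The regions described here were 1165 regions on scaffolds at which the methylation level was lower in dnmt3ba morphants than in controls, out of 7550 regions in the authors' deposited table. They were chosen by a morphant level below the control level and by a sequence name that did not begin with the letters of the assembled chromosomes (NC_). All their names began with NW_, and they lay on 596 scaffolds. The names do not say whether a scaffold is unplaced or is an alternate copy of a placed locus, and the assembly GRCz11 holds both kinds, so the regions are called scaffold losses here. The morphant and control levels that chose them are given below as a description, with no test.

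The morphants were zebrafish embryos that had received a morpholino (a synthetic antisense oligonucleotide) against dnmt3ba, and their genotype label is dnmt3ba knockdown. The controls have the genotype label WT, and the labels do not say what, if anything, was injected into them. All embryos carried an mCherry reporter driven by kdrl, which marks endothelium, and a GFP reporter driven by a runx1 enhancer, which marks haemogenic endothelium, the cells of the aorta that give rise to blood stem cells. Cells positive for both were sorted from the trunk at 36 hours post-fertilisation, about 5000 per sample, and each sample pools the embryos needed to reach that number. There were 3 morphant and 3 control samples, described as biological replicates, for whole-genome bisulfite sequencing, which reads the methylation of single cytosines, and as many for RNA-seq.

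The methylation table gives 1 level per group and none per replicate, so no region value here has a replicate error, and neither the depth nor the coverage of a region is known. No test beyond the authors' own q-value could be made for a region. A level is a mean over the sorted cells, in which fewer methylated cells and fewer methylated sites per cell cannot be told apart.

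The targeted transcript was read in the RNA libraries, which are not the libraries of the methylation table. dnmt3ba (gene ID 321084) had 112, 197 and 159 TPM (transcript abundance scaled to the library's total) in morphants 1, 2 and 3, against 122, 271 and 113 TPM in controls 1, 2 and 3. The groups overlapped, and their means were 156 ± 42.8 TPM in morphants and 169 ± 88.8 TPM in controls (SD, n = 3 each). The difference in mean log2(TPM + 1) was -0.031 (exact permutation test, two-sided, p = 0.9, where the smallest p that 3 against 3 allows is 0.1). It was 0.19 without morphant 1 and 0.37 without control 2. A morpholino can block translation without lowering a transcript, so these values do not check the labels.

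Markers of the sorted cell type were present in each RNA library. Summed over 5 endothelial genes the level was 1020 to 1051 TPM in morphants and 612 to 839 TPM in controls, and over 4 haemogenic genes it was 198 to 216 TPM in morphants and 322 to 369 TPM in controls. In both lists the groups did not overlap, but how many other genes separate likewise was not counted, so nothing is read from this. The kdrl level alone was 22.8 to 122 TPM in morphants and 16.6 to 60.6 TPM in controls, which overlap. The runx1 level alone was 7.15 to 11.4 TPM in morphants and 13.7 to 32.95 TPM in controls. These do not overlap, but nothing is read from this either, for the same reason as for the lists. Markers of other cell types were also read: 3 skeletal muscle genes summed to 6652 to 15644 TPM in morphants and 10522 to 49412 TPM in controls, 3 erythroid genes to 847 to 2872 TPM in morphants and 2310 to 8632 TPM in controls, 2 neutrophil genes to 6921 to 23414 TPM in morphants and 5964 to 19376 TPM in controls, and 2 epidermal genes to 390 to 774 TPM in morphants and 567 to 3376 TPM in controls. No gene of these lists was at 0 in all libraries. The part of cell makeup in the methylation differences was not tested.

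The first question was how far methylation fell on the scaffolds. Methylation fell by 23.8 points in the median region, and no region was at 0 in morphants, where the lowest level was 0.336%. Over the 1165 scaffold losses the median level was 31.6% in morphants (quartiles 15.7% and 53.7%) and 62.3% in controls (quartiles 45% and 79.1%). The median difference, morphant minus control, was -23.8 percentage points (quartiles -31.1 and -17.5), and it ran from -68.0 to -10.01 points. In the median region the morphants kept 54.0% of the control level. Losses of at least 20 points made up 760 regions (65.2%), losses of at least 30 points 335 (28.8%), losses of at least 40 points 97 (8.33%) and losses of at least 50 points 18 (1.55%). The morphant level was at most 50% of the control level in 513 regions (44.0%) and at most 20% of it in 109 (9.36%).

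**Figure D1:**
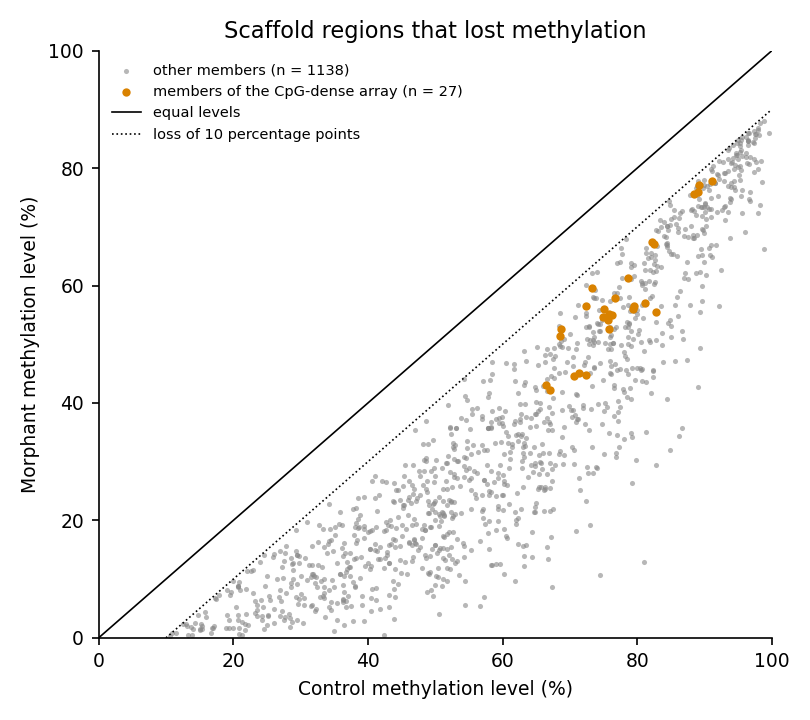
Methylation level of each of the 1165 scaffold losses in morphants (y axis, %) against controls (x axis, %). Each point is 1 region, and orange points are the 27 regions of the array on NW_018394561.1. The solid line marks equal levels and the dotted line a loss of 10 points. All points lie under the dotted line because the table holds no smaller difference, and the orange points sit together at a control level of 66.5% to 91.2%.

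The size of the loss differed with the level that the controls carried. In the 35 regions with a control level under 20%, the median level was 2.04% in morphants and 15.8% in controls. The 193 regions with 20% to under 40% in controls had medians of 9.61% in morphants and 31.8% in controls. Between 40% and 60% in controls (318 regions) the medians were 21.9% in morphants and 50.6% in controls, a median difference of -27.8 points. Between 60% and 80% (345 regions) they were 41.4% in morphants and 70.6% in controls, with a median difference of -28.2 points. At 80% or more in controls (274 regions) they were 71.3% in morphants and 89.4% in controls, and the median difference was -17.4 points. The share of the control level that morphants kept was thus 13.7% in the lowest class (median), 31.2%, 43.5% and 59.1% in the next classes, and 80.2% in the highest. Part of this order is fixed by the table, since no region in it has a difference under 10 points and no region can lose more than its control level.

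Losses on the chromosomes had similar levels. The 5642 losses there had a median level of 30.8% in morphants and 60.7% in controls, and a median difference of -22.8 points, against -23.8 on the scaffolds. The quartiles of the difference were -30.1 and -16.9 points on the chromosomes. Of the 5 classes of control level, the lowest had the widest gap between scaffolds and chromosomes, with median differences of -12.4 points on scaffolds and -13.4 on chromosomes. Between 40% and 60% in controls the median difference was -27.8 points on scaffolds and -27.7 on chromosomes. Losses on chromosome 4, whose long arm is known in zebrafish for dense repeats and ribosomal RNA genes, stood at higher levels. Their median was 48.01% in morphants and 73.8% in controls (405 regions), and morphants kept 66.4% of the control level in the median region. A control level of 80% or more was found in 23.5% of the scaffold losses, against 23.9% of all chromosome losses and 39.01% of those on chromosome 4. These comparisons are descriptions: regions are not replicates, the levels chose them, and no test of the difference was made. A scaffold may be an alternate copy of a placed locus, so scaffold and chromosome losses may share sequence or reads. How far they do was not tested.

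**Figure D2:**
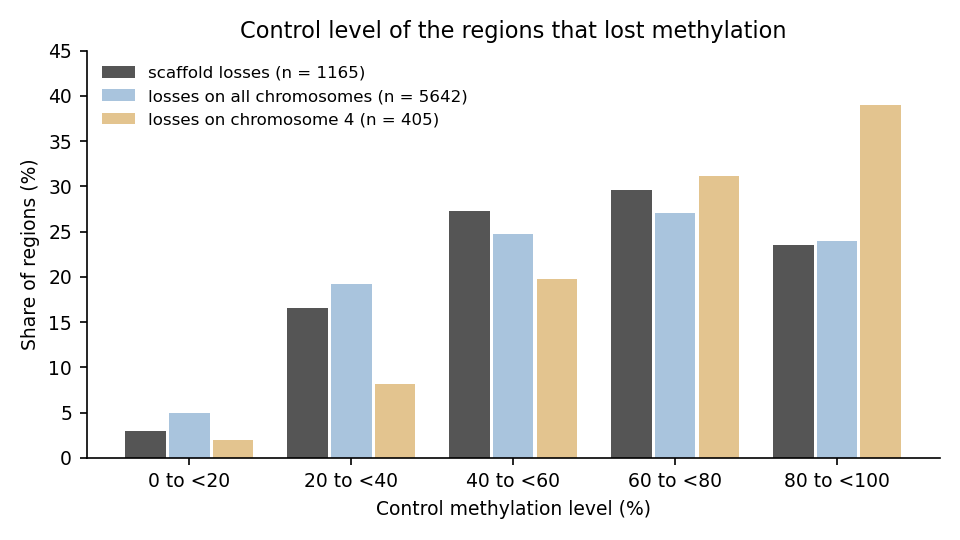
Share of regions (y axis, %) by control methylation level (x axis, %), for the 1165 scaffold losses, the 5642 losses on all chromosomes and the 405 of these on chromosome 4. The scaffold bars follow those of all chromosomes, with 29.6% and 27.1% at 60% to under 80%, while chromosome 4 has 39.01% of its losses at 80% or more.

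Losses were the rule on scaffolds as they were elsewhere in the table. Of the 1268 scaffold regions 91.9% were lower in morphants (95% exact binomial interval 90.2% to 93.3%, which covers the counting of regions only). The share was 89.8% over 6282 chromosome regions and 90.2% over all 7550. Single chromosomes ran from 84.2% on chromosome 22 (170 of 202 regions) to 93.7% on chromosome 24 (134 of 143), and 5 of 25 chromosomes had a higher share than the scaffolds. The sign of the difference chose the regions, so nothing is read from these shares. Scaffolds held 16.8% of all regions and 17.1% of all losses.

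The regions nearest the edge of the choice show what it separated. The smallest losses were at NW_003336480.1, positions 13001 to 13097 (0.867% in morphants, 10.9% in controls), at NW_018395160.1, 34893 to 35064 (83.4% in morphants, 93.6% in controls), and at NW_018394736.1, 23593 to 23720 (9.74% in morphants, 19.9% in controls). The smallest gains on scaffolds were at NW_018395107.1, 272938 to 273011 (96.4% in morphants, 86.4% in controls), at NW_018394921.1, 287237 to 287377 (91.3% in morphants, 81.2% in controls), and at NW_018394860.1, 136928 to 137236 (86.3% in morphants, 75.9% in controls). No scaffold region of the table lies between these losses and gains. Positions are given as deposited; the build is GRCz11 per the submitters' processing notes, and no gene annotation of it was used here, so no region is assigned to a gene, exon or intron.

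The 8 largest losses were in regions of 61 to 291 bp with 5 to 11 CpG sites, fewer sites than the median of 13 for all scaffold losses. At NW_018394497.1, 144039 to 144154, 5 CpG sites read 12.9% in morphants and 81.0% in controls, a difference of -68.0 points (q = 0.0032 in the authors' deposited table). At NW_018394972.1, 228863 to 228923, 5 sites read 10.6% in morphants and 74.5% in controls. At NW_018395149.1, 55789 to 55999, 11 sites read 8.64% in morphants and 67.3% in controls, with a q of 5.8e-08 in the authors' deposited table. The next were NW_003335359.2, 25422 to 25652, with 11 sites at 19.2% in morphants and 73.0% in controls, and NW_018395383.1, 71275 to 71341, with 8 sites at 13.3% in morphants and 66.8% in controls. Then came 3 regions of 5 sites each. These read 29.5% in morphants and 82.7% in controls at NW_018394502.1 (227403 to 227693), 32.0% in morphants and 84.9% in controls at NW_001878128.4 (118627 to 118914), and 26.3% in morphants and 79.2% in controls at NW_003337203.1 (51897 to 51957). Of these 8 regions, 5 had 5 CpG sites, the fewest that any region of the table has.

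Large losses also occurred over many sites. Among regions of at least 20 CpG sites, which were picked out with their values known, the largest loss was at NW_018395154.1, 133035 to 133627, where 20 sites read 13.9% in morphants and 63.2% in controls. The same scaffold held the next, at 440038 to 441122, with 20 sites over 1085 bp at 15.9% in morphants and 63.5% in controls. At NW_018394882.1, 222828 to 224029, 39 sites over 1202 bp read 12.4% in morphants and 58.5% in controls (q = 3.9e-17 in the authors' deposited table). At NW_018394801.1, 200400 to 201219, 30 sites read 12.7% in morphants and 59.1% in controls. These 4 regions had 1.84 to 3.66 CpG sites per 100 bp. The median was 5.67 for all scaffold losses and 4.82 for those of 20 to 39 sites. The next largest, NW_018395159.1, 109646 to 109900, was denser, with 11.4 sites per 100 bp, and its 29 sites read 40.6% in morphants and 84.4% in controls.

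A few regions were left with next to no methylation in morphants, and these too were named after their values were seen. At NW_018394574.1, 101417 to 101486, 5 sites read 0.553% in morphants and 42.3% in controls, so that morphants kept 1.31% of the control level. At NW_018394524.1, 93611 to 93848, 8 sites read 0.463% in morphants and 21.3% in controls. Over all scaffold losses, 162 regions (13.9%) were under 10% in morphants, against 19.04% of the chromosome losses and 7.16% of those on chromosome 4.

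Length and CpG content, which the choice did not use, were close to those on the chromosomes. Scaffold losses had a median length of 229 bp (quartiles 118 and 411), against 239 bp on the chromosomes (quartiles 127 and 431). The median number of CpG sites was 13 on both, and the median density was 5.67 sites per 100 bp on scaffolds and 5.37 on chromosomes. On chromosome 4 it was 6.03. As for the levels, sequence shared between scaffolds and chromosomes was not tested. Regions of 5 to 9 sites (353 regions) had a median difference of -26.9 points, those of 10 to 19 sites (529) -23.1 points, those of 20 to 39 sites (258) -22.0 points and those of 40 or more (25) -23.4 points. The median q fell along the same classes, with 0.014 for 5 to 9 sites and 4.1e-05 for 20 to 39 sites in the authors' deposited table. Every region had a q under 0.05, and the part of that limit in the order of these differences was not tested. The densest regions of at least 10 sites held 26 sites per 100 bp. They were NW_018394970.1, 215824 to 215873, at 14.1% in morphants and 24.6% in controls, and NW_018395298.1, 137425 to 137474, at 8.37% in morphants and 21.8% in controls, each with 13 sites in 50 bp. The next, NW_018394754.1, 126476 to 126541, read 14.1% in morphants and 29.4% in controls, and NW_003336764.1, 3258 to 3313, read 52.2% in morphants and 79.0% in controls. The last was tied, at 21.4 sites per 100 bp, with NW_018395125.1, 138899 to 138982, which read 15.95% in morphants and 43.4% in controls. Of these 5 regions, the first 3 were under 30% in controls.

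The next question was how the losses were spread over scaffolds. Most scaffolds held only 1 or a pair: 325 scaffolds had 1 loss, 143 had 2, and 128 had 3 or more, which together held 554 regions. Within a scaffold of 3 or more losses the differences ranged over a median of 18.2 points. Whether regions of 1 scaffold were more or less alike than regions of different scaffolds was not tested. Neighbouring losses on a scaffold lay a median of 9122 bp apart, and 181 of 569 neighbouring pairs (31.8%) lay within 1000 bp. On the chromosomes the median was 123593 bp and 15.6% lay within 1000 bp. The distance on scaffolds cannot exceed their length, which no source gives, so the 2 medians and the 2 shares are not comparable. Losses within 1000 bp of each other formed 984 blocks, and the largest held 25 regions while the second largest held 4. Scaffolds whose names begin with NW_018 held 1017 of the losses, with a median difference of -23.9 points. Those with NW_003 held 110 (-22.5 points), those with NW_001 held 22 (-26.5 points) and those with NW_008 held 16 (-24.5 points).

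**Figure D3:**
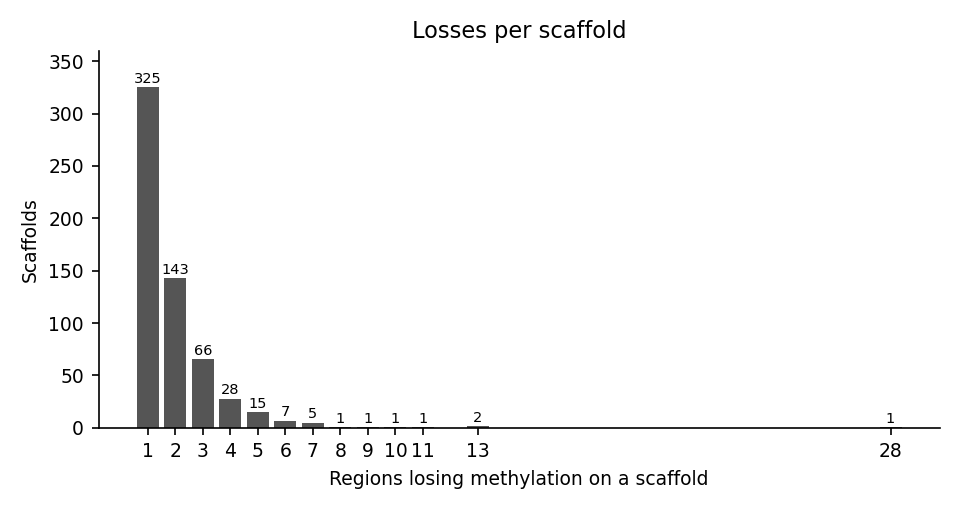
Number of scaffolds (y axis) by the number of losses they hold (x axis), for the 596 scaffolds with at least 1. There are 325 scaffolds with 1 loss, 143 with 2, and a single scaffold with 28.

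Gains were also placed against the losses. No like count of near pairs was made on the chromosomes, so nothing is read from their number. The 103 gains on scaffolds lay on 97 scaffolds, of which 49 also held a loss. Their median level was 86.8% in morphants and 69.8% in controls, and they were shorter than the losses, with a median of 121 bp and 9 CpG sites. A single pair lay within 1000 bp, at NW_018395121.1. There, 5 sites at 11241 to 11314 read 76.4% in morphants and 94.6% in controls, and 456 bp further on, 9 sites at 11771 to 11891 read 82.1% in morphants and 68.3% in controls. The next nearest were on NW_018394915.1, where a gain at 182078 to 182214 read 91.8% in morphants and 79.9% in controls. A loss 1702 bp from it, at 180238 to 180375, read 45.7% in morphants and 80.6% in controls. Another loss there lay 1912 bp from the same gain. A further pair, on NW_018395109.1, was picked out with its values known and holds the largest gain on scaffolds, 37.9 points. Its 7 sites at 60053 to 60190 read 9.38% in morphants and 28.6% in controls. At 64605 to 64657, 4414 bp further on, 6 sites read 90.8% in morphants and 53.0% in controls.

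The fullest scaffold, NW_018394561.1, carried an almost unbroken run of losses. Of its 28 regions, 27 lay between positions 8 and 17543 and covered 86.4% of that span, with 1176 CpG sites. This run is called the array here, and a CpG-dense array in the plots. It held 7.76 CpG sites per 100 bp, between the median of 5.67 and the upper quartile of 8.20 of single scaffold losses. Its own regions ran from 1.57 to 17.6 sites per 100 bp. Weighted by CpG sites, the level of the array was 55.3% in morphants and 76.3% in controls, a difference of -21.1 points. Levels within it ran from 42.3% to 77.8% in morphants and from 66.5% to 91.2% in controls. The region with the most CpG sites of all scaffold losses lay in it, at 7590 to 9506. Its 228 sites over 1917 bp read 55.1% in morphants and 76.2% in controls, with a q of 4.9e-60 in the authors' deposited table. It held 112 sites at 1253 to 2469, at 55.2% in morphants and 75.8% in controls, and 113 sites at 12789 to 14020, at 54.2% in morphants and 75.6% in controls. Of the 9 scaffold losses with at least 60 CpG sites, 8 lay in the array. The other was at NW_018394355.1, 271 to 1106, where 112 sites read 53.5% in morphants and 74.4% in controls. The 28th region of the fullest scaffold lay far from the array, at 146075 to 146556, and read 11.4% in morphants and 22.7% in controls.

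The array had a counterpart near the end of chromosome 4. A search for regions of equal length and equal number of CpG sites, at a common distance on 2 sequences, found 7 regions of the array that each lay exactly 77549881 bp below a loss on chromosome 4. The 228-site region matched the one at 77557471 to 77559387 on chromosome 4, which read 54.9% in morphants and 75.9% in controls. The 73-site region at 9517 to 10004 read 44.6% in morphants and 70.6% in controls on the scaffold, and its match on chromosome 4 read 44.3% in morphants and 70.1% in controls. Over the 7 pairs, which held 382 CpG sites on the scaffold, levels differed by at most 0.884 points in morphants and 2.12 points in controls. The stretch of chromosome 4 from 77549889 to 77567599 held 23 losses with 1202 sites, and weighted by sites it read 55.6% in morphants and 76.3% in controls. The sources do not say how reads that fit both places were assigned, so it is not known whether these stretches are separate measurements.

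**Figure D4:**
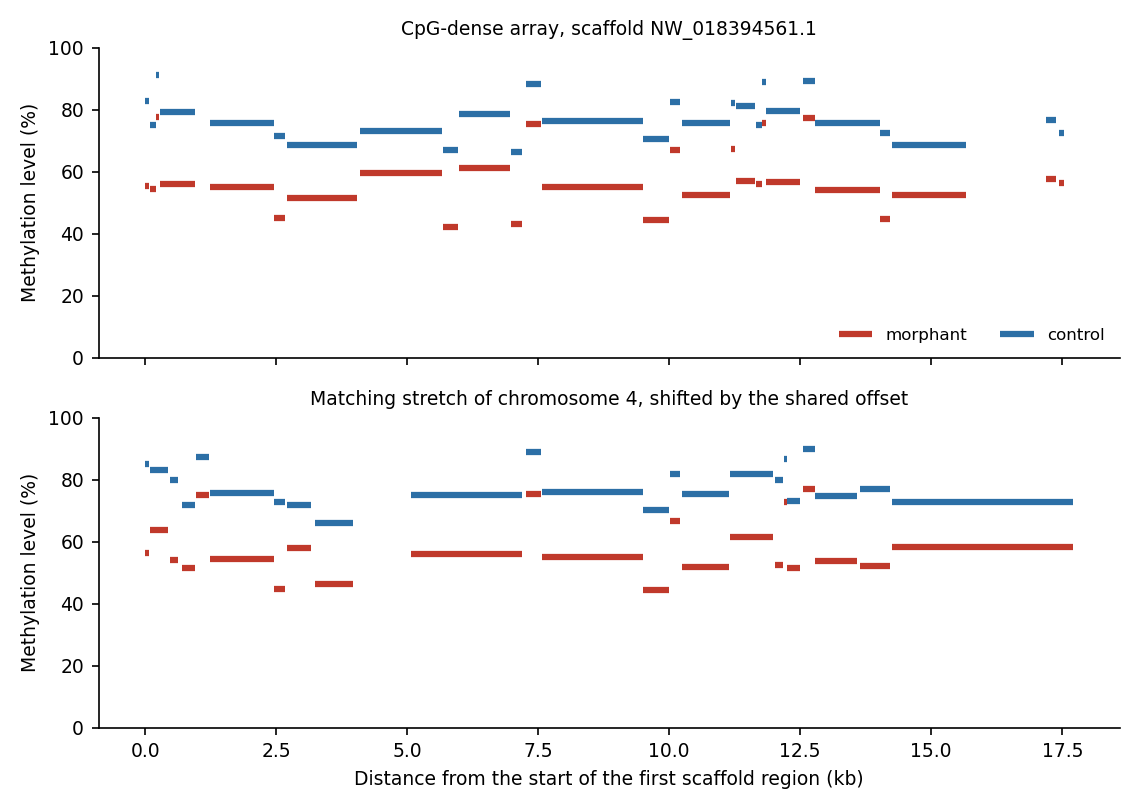
Methylation level (y axis, %) of each loss in the array on NW_018394561.1 (upper plot, 27 regions) and in the stretch of chromosome 4 that matches it (lower plot, 23 regions), by distance from the first scaffold region (x axis, kb), with chromosome 4 shifted by the shared 77549881 bp. Each bar is 1 region, red in morphants and blue in controls; the morphant bar lies under the control bar in every region of both plots.

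The array also held regions with counterparts further along it. A further 2 of its regions matched chromosome 4 losses at a second distance, which was 11551 bp shorter. Of these, the 19 sites at 14027 to 14227 matched the same chromosome 4 region as the 19 sites at 2476 to 2676. Their spacing of exactly 11551 bp thus follows from the 2 matches and is not a separate finding. The earlier region read 45.1% in morphants and 71.4% in controls, and the later read 44.8% in morphants and 72.4% in controls. The region of 21 sites at 2716 to 4044 read 51.4% in morphants and 68.5% in controls, and that of 22 sites starting 11551 bp on, at 14267, read 52.6% in morphants and 68.8% in controls. The regions of 112 and 113 sites named above ended 11551 bp apart, but they were 1217 and 1232 bp long. Which sequence they hold was not analysed here, and whether the sequence repeats was not tested. The array made up 2.32% of the scaffold losses but 6.44% of their CpG sites. Without it, the median difference of the scaffold losses was -23.9 points and their median density 5.60 sites per 100 bp.

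No other scaffold was found to have such a match, within the limits of the search. Over all 1165 scaffold losses it found runs of 2 or more equal regions at a common distance for NW_018394561.1 only. These runs were with chromosome 4 only. A run needs at least 2 losses on a scaffold, so the 325 scaffolds with 1 loss could not give one. Copies that differ in length or site number were also missed. Single regions of equal length and site number, anywhere on a chromosome, were also counted. They were found for 311 of 812 scaffold losses with at least 10 sites, 43 of 283 with at least 20 and 11 of 89 with at least 30. At 60 or more sites 3 of 9 had one, and all 3 lay in the array. How often regions that are not copies agree in both measures was not counted, so nothing is read from these numbers.

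The other full scaffolds differed from each other in level. NW_018394972.1 held 11 losses between 78282 and 240122, at 3.61% to 16.2% in morphants and 14.8% to 74.5% in controls, with medians of 5.80% in morphants and 34.5% in controls. The morphant level was thus under 20% in each of its regions. NW_018394732.1 held 13 losses, with medians of 27.5% in morphants and 48.6% in controls and differences of -30.1 to -13.3 points. NW_018394646.1 held 10 losses within 61090 bp, with medians of 16.1% in morphants and 42.1% in controls, and they ran from 3.94% to 74.5% in morphants and from 20.7% to 86.2% in controls. NW_018394608.1 held 9 losses, with medians of 35.5% in morphants and 72.5% in controls. Its region at 119212 to 120798, one of the longest of all at 1587 bp, had 41 sites at 35.5% in morphants and 66.8% in controls. The longest was the 1917 bp region of the array at 7590 to 9506, named above. The others among the 4 longest were NW_018394988.1, 180192 to 181886 (1695 bp), and NW_018394561.1, 4115 to 5670 (1556 bp). The former read 37.3% in morphants and 71.1% in controls, and the latter 59.6% in morphants and 73.2% in controls.

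**Figure D5:**
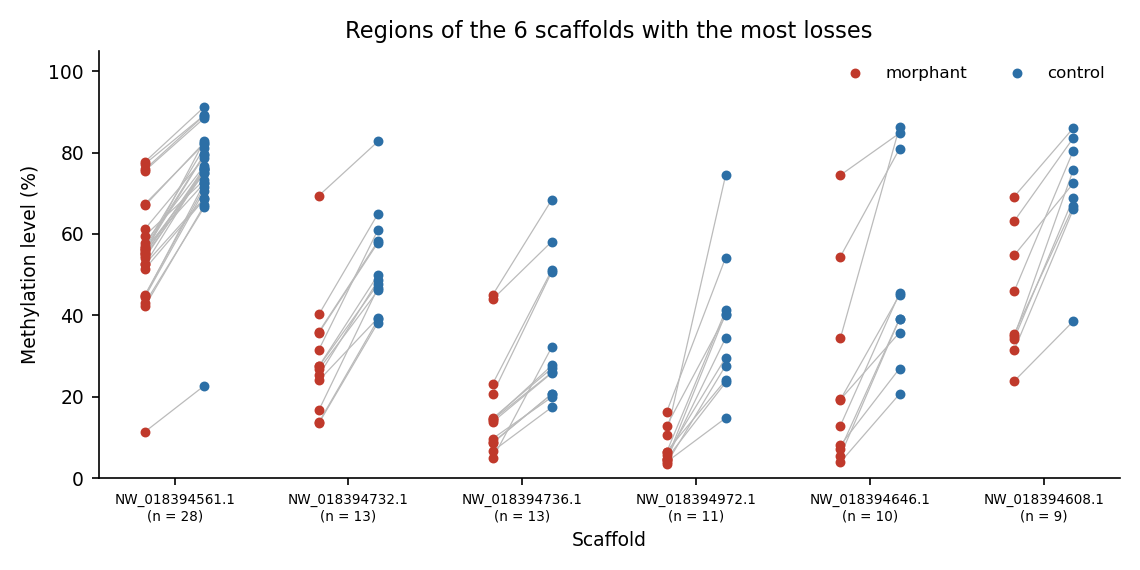
Methylation level (y axis, %) of each loss on the 6 scaffolds that hold the most (x axis), red for morphants on the left and blue for controls on the right, with a line joining the values of 1 region. On NW_018394972.1 the 11 morphant values lie between 3.61% and 16.2%, while on NW_018394561.1 27 of 28 lie between 42.3% and 77.8%.

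On NW_018394736.1, with 13 losses, a group of 3 regions had a later counterpart of similar spacing and levels. It was found with a tolerance of 50 bp, outside the search for equal regions. Whether the sequence repeats was not tested. The regions starting at 22514, 23200 and 23593 read 14.4%, 20.7% and 9.74% in morphants and 27.7%, 50.7% and 19.9% in controls. Those starting at 158243, 158923 and 159285, between 135692 and 135729 bp further on, read 13.8%, 23.2% and 8.66% in morphants and 25.9%, 51.2% and 20.7% in controls. The middle region of each group lost the most, and the flanking ones were lower in both groups of embryos. The numbers of sites were close but not equal, at 26, 12 and 8 in the first and 21, 14 and 9 in the second. The medians of the scaffold were 14.3% in morphants and 27% in controls, the lowest control median of the 6 fullest scaffolds.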

How the data were processed

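The deposited methylation table was used as the authors made it. Per the file headers, each region has 1 methylation fraction for morphants and 1 for controls, printed here as percentages. The deposited difference is a score, negative for losses. A CpG site number follows, and an FDR, which is the authors' q-value and was under 0.05 throughout. The table holds no region of under 5 CpG sites, 50 bp or 10 points. BS-Seeker2 2.1.8, HISAT2 2.2.1, HTSeq 0.12.4, DESeq2 1.30.1 and the build GRCz11 are named without roles per the submitters' processing notes; neither the region caller nor a coverage minimum is stated. The deposited TPM and FPKM values were made by the authors per the file headers and served for the marker genes and dnmt3ba alone.

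Length counted both end positions, and density was sites per 100 bp. Runs of matching regions needed at least 2 pairs of equal length and site number at 1 distance, and that search was checked on made-up regions. Blocks joined losses within 1000 bp; the array joined losses within 2000 bp. dnmt3ba was tested on log2(TPM + 1) by an exact permutation test (SciPy 1.17.1). Chromosome numbers came from the order of the RefSeq names. The gene fli1a was found as fli1 through RefSeq synonyms. Regions named were the 8 largest losses, the 4 with most sites, the 4 longest, the 4 densest, the 3 on each side of 0 and the 6 fullest scaffolds; others are said to be chosen after their values were seen. The members and lists were chosen with earlier results of these data known. A test of genes on the regions was planned but not run, as no annotation of the build was used.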

Additional observations from a re-analysis of the deposited data

How the results depend on the processing

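Of 46 alternative values, 29 kept their direction and stayed within the limits set, 15 moved and 2 reversed. The limits were counts within 1.5 times, shares and medians within the 95% interval of the main value, and the sign and test for dnmt3ba. These intervals cover the counting of regions only, and regions are not replicates. An alternative limit of 10 points removes no region, so its 5 values could not move. With so few libraries the exact permutation test of dnmt3ba cannot fall under 0.05, so only the sign could change there. A replicate block leaves the mean difference as it is, so under that setting the sign could not change either. The number of scaffold losses, 1165 in all, was 466 at a q under 0.001 and 760 at differences of at least 20 points. The share of scaffold regions that were losses, 91.9%, was 95.8% at a q under 0.01, 96.9% at a q under 0.001, 96.7% at differences of at least 20 points and 94.9% at 10 or more CpG sites. The median difference, -23.8 points, was -25.6 at a q under 0.01, -26.9 at a q under 0.001, -28.6 at differences of at least 20 points, which follows from that limit, and -22.7 at 10 or more sites. The median density, 5.67 sites per 100 bp, was 5.39 at a q under 0.001, 5.29 at differences of at least 20 points and 5.38 at 10 or more sites. The median control level, 62.3%, was 59.2% at a q under 0.001 and 59.8% at 10 or more sites. For those not explained by the limit itself the cause was not tested. Leaving out NW_018394561.1 moved none of these 5 values beyond the limits. Merging losses within 1000 bp (an alternative chosen after seeing the data), which gives no share, moved none of the other 4, and taking 1 value per scaffold, which gives neither number nor share, moved none of the 3 medians.

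The dnmt3ba difference ran from -0.26 to 0.37 over the single libraries left out and changed sign without morphant 1 (0.19) and without control 2 (0.37). With a replicate block it was -0.031 (exact permutation p = 1), but same-numbered libraries did not vary together (correlations of 0.04, -0.17 and -0.28 over 15647 genes), so the numbers do not pair the samples. For the regions no paired analysis was possible because the table holds no values per replicate, and libraries could not be left out for the same reason. The planned RNA test of genes on the regions, with its alternatives, was not run.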
